A study of Mus musculus with 4 samples.

Results

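C-type lectin receptors were compared between macrophages cultured in the high-fat-containing medium (Fat) and the fat control medium (Con). The 10 genes were taken by symbol from the 17013 genes with deposited values: Mrc1, Mgl2 and Clec10a, which are linked to alternatively activated (M2) macrophages, Clec4n, Clec4d, Clec4e and Clec7a, which sense pathogens or damaged cells, and Clec4a1, Clec4a2 and Clec4a3 of the dendritic cell immunoreceptor (DCIR) family. All 10 were present. The cells were wild-type (WT) C57BL/6 mouse bone marrow macrophages grown in M-CSF, a growth factor that drives marrow cells to become macrophages, and seeded on porous inserts. Both media came from the same kind of preparation of digested, freeze-thawed mouse abdominal fat, Con from its middle layer and Fat from its top layer. Both groups also received artificial necrotic bone fluid (aNBF), an extract of freeze-thawed bone that carries molecules released by dead cells, so that no library represents macrophages without necrotic material. RNA was collected after 24 h, and 2 libraries were sequenced from each medium. The sources used here do not say whether the 2 libraries of a medium came from separate animals or cultures, so the p-values measure the spread between these libraries, which may be technical.

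C-type lectin receptors are membrane proteins that bind sugars, glycolipids or other ligands through a shared fold, the C-type lectin-like domain. Some, such as the mannose receptor encoded by Mrc1, mainly take up glycoproteins, whereas others start signalling: Clec7a (Dectin-1) through a tyrosine motif in its own tail, and Clec4n (Dectin-2) and Clec4e (Mincle) through the adaptor FcRγ, encoded by Fcer1g, all of which lead to the kinase SYK and the scaffold CARD9. The DCIR receptor encoded by Clec4a2 carries an inhibitory motif that recruits phosphatases.

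Of the 10 receptor genes, Clec4e and Mgl2 fell in Fat, each to less than 0.5 times its level in Con. Both had a limma adjusted p-value under 0.05, as did 5.0% of all tested genes in that direction. At an adjusted p-value under 0.05, 0 rose by limma, edgeR or DESeq2 (1 rose at an unadjusted p-value under 0.05 by each, against 11.8% of all tested genes by limma). Mgl2, with only 14 to 53 reads, was not called by DESeq2 (adjusted p = 0.0687), whereas Clec4e was. The 2 genes belong to different functional groups, one to the sensing receptors and one to the M2-linked receptors. Clec10a, the nearest relative of Mgl2, was higher in both Fat libraries than in both Con libraries but did not pass the test. Clec4d, which lies next to Clec4e in the genome, had a log2 fold change of 0.09. The 3 DCIR genes overlapped between the groups.

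Clec4e, Clec4d and Mgl2 are shown first by the sequence around their transcription start, since Clec4e and Mgl2 were the genes that fell and Clec4d is the neighbour of Clec4e that did not pass the test. Each window holds 250 bases before and 50 bases after the start site (RefSeq, build GRCm38.p6), 5′ to 3′ on the strand of the gene. Capitals mark the core of the binding motif of PU.1, a factor that defines the macrophage lineage (GAGGAA), and the C/EBP motif (TTGCNNAA), each searched on both strands. The Clec4e window is chr6:123289822-123290121 on the minus strand, the Clec4d window is chr6:123261857-123262156 on the plus strand, and the Mgl2 window is chr11:70130107-70130406 on the plus strand.
Clec4e: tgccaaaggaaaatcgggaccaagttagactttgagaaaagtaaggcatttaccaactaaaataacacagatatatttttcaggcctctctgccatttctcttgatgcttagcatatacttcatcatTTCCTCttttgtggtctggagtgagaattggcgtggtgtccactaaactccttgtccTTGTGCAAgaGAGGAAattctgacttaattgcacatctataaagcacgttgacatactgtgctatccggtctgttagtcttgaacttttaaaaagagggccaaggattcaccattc
Clec4d: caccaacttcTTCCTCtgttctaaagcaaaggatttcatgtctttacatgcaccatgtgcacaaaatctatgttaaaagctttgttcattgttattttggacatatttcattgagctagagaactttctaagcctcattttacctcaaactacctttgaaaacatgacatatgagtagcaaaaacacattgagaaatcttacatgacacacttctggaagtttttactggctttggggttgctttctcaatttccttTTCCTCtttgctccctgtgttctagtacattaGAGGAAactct
Mgl2: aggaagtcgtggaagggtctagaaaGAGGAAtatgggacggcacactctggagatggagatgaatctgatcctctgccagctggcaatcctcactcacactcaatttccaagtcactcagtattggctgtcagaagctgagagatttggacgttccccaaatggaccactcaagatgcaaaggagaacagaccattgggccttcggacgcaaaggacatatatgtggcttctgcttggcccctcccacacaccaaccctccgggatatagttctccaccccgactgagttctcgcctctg

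Start-site windows were found for 8 of the 10 genes, in 10 windows since Clec4a3 and Clec7a have several. The PU.1 core was present in 8 of the 10 windows, against 28.3% of all 32841 mouse windows of this length. By gene, 7 of these 8 had the core in a window, Clec4a2 being the exception. The windows of Clec7a overlap and share the same core, so the 10 are not independent. Those of Clec4a3 also overlap, and the core was absent from one of them. The C/EBP motif was present in the Clec4e window only among these 8 genes, and in 10.8% of all windows. In Clec4e it began 66 bases before the start site, with a PU.1 core 56 bases before it, and the 2 motifs did not overlap. The STAT motif (TTCNNNGAA, 8.30% of all windows) was found in Clec4a2, the interferon-stimulated response element (3.44%) in Clec4d, and the NF-kB motif (20.7%) in Mrc1, Clec4a1 and Mgl2. A direct repeat bound by PPAR and RXR (0.040%) was found in 0 of them. These are matches of letters and not measured binding.

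By position, 6 of the 10 genes lie in 1 run of 9 neighbouring coding genes on chromosome 6, in the order Clec4a1, Clec4a3, Clec4a4, Clec4b1, Clec4a2, Clec4b2, Clec4n, Clec4d and Clec4e. Mgl2 and Clec10a are neighbours on chromosome 11. Such copies can share reads: 20.3% of the 75-base stretches of Mgl2 transcripts were also found in other genes, 19.2% in Clec10a, and 19.1% of the stretches of Clec10a were found in Mgl2, allowing 2 mismatches. For Clec4a2 the share was 12.7%, mainly with Clec4a4 and Clec4b1. For Mrc1, Clec4n, Clec4d, Clec4e, Clec7a, Clec4a1 and Clec4a3 it was 0%. How the authors assigned reads found in several genes is not given in the sources used here.

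The deposited values are CPM, read counts scaled to a common library total, from which whole reads could be recovered for all genes. The libraries held 33573852 to 40785872 reads. All 10 genes passed the filter on low values (2 or more libraries with 0.5 CPM or more), which left 12470 genes. Log2(CPM + 0.1) values of these genes were compared by the two-sided moderated test of limma, p-values were adjusted over all 12470 genes by the Benjamini-Hochberg method, and an adjusted p-value under 0.05 was called. Of all genes tested, 9.0% were called in either direction, 5.0% lower and 3.99% higher in Fat, against 2 of the 10 receptor genes, both lower. Mgl2 passed the filter through both Con libraries and 1 Fat library (0.512 CPM), since the other Fat library was at 0.375 CPM.

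The macrophage identity of the cultures was checked with marker genes. All 10 macrophage markers analysed, Csf1r, Lyz2 and C1qa among them, were detected, with a summed level of 36322 and 38414 CPM in the Con libraries and 28494 and 29966 CPM in the Fat libraries, and 5 of the 10 were called lower in Fat. The summed dendritic cell markers, of interest because Mgl2 and several of the other lectins are also dendritic cell genes, lay between 11.7 and 13.0 CPM in Con and between 9.08 and 9.51 CPM in Fat, 1 of the 6 that passed the filter being called (Batf3, lower). Flt3 and Xcr1 had at most 3 reads in every library. Other genes of this list were detected, with 173 to 298 reads of Batf3, 50 to 68 of Ccr7, 34 to 50 of Btla and 14 to 28 of Zbtb46, and Mgl2 itself had 14 to 53. Neutrophil markers summed to 796 to 878 CPM in Con and 702 to 736 CPM in Fat, fibroblast and endothelial markers to 620 to 642 and 519 to 664 CPM, and lymphocyte markers to 19.97 to 21.7 and 16.3 to 17.8 CPM. Of the markers that passed the filter, 1 of 10 neutrophil, 1 of 7 fibroblast and endothelial and 0 of 6 lymphocyte genes were called with limma, both of those called being lower in Fat (1 lymphocyte gene at an unadjusted p-value under 0.05, and 0 by edgeR or DESeq2 at an adjusted one). The 10 adipocyte markers other than Fabp4, which macrophages also express, had 6 and 7 reads together in the Con libraries and 426 and 245 reads in the Fat libraries. Of the 3 adipocyte markers that passed the filter, Fabp4 included, 2 were called higher in Fat by limma. These were Car3 and Cidec, which passed the filter through the Fat libraries alone. The part of these other cells in the lectin values was not tested. In bulk RNA, fewer cells of a type and less RNA per cell cannot be told apart.

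Scaled for gene length (TPM), sensing receptors had the 3 highest levels, and an M2-linked receptor had the lowest. Clec4d had the highest mean level in both media (2749 TPM in Con and 2985 TPM in Fat), followed by Clec7a (2725 and 2433 TPM). In Con these 2 genes did not differ beyond the spread between the libraries, whereas in Fat both libraries of Clec4d lay above both of Clec7a. Clec4n came next with 729 TPM in Con and 530 TPM in Fat. Mrc1, Clec4a2, Clec4a3 and Clec4a1 followed between 98.3 and 175.7 TPM in Con, with Clec4a2 and Clec4a3 overlapping in Con and Mrc1 and Clec4a2 in Fat. Clec10a (14.2 TPM) and Clec4e (12.6 TPM) overlapped in Con but not in Fat, where Clec10a was at 19.7 TPM and Clec4e at 5.65 TPM. Mgl2 was the lowest at 1.71 TPM in Con and 0.634 TPM in Fat. The order of the 10 means was the same in both media.

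**Figure D1:**
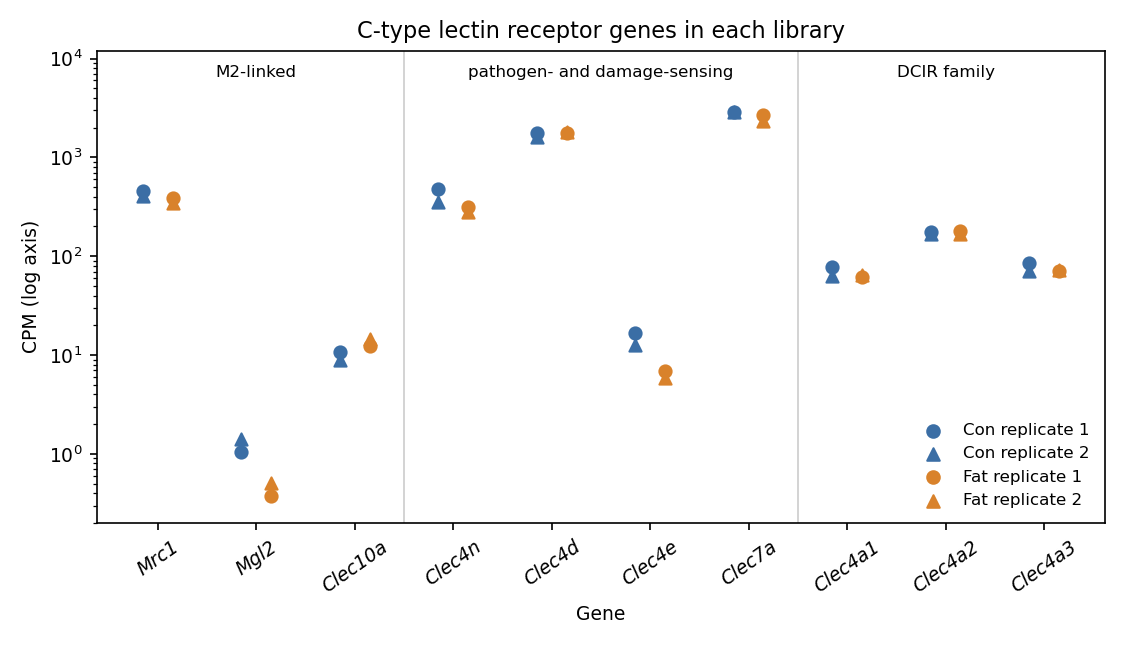
CPM of each of the 10 receptor genes (log axis) in the 4 libraries, with Con in blue, Fat in orange, circles for replicate 1 and triangles for replicate 2. The groups stand apart most clearly for Mgl2 (0.375 and 0.512 CPM in Fat, 1.03 and 1.41 CPM in Con) and for Clec4e (6.94 and 5.90 CPM in Fat, 16.5 and 12.6 CPM in Con).

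Among the sensing receptors, Clec4e, which recognises mycobacterial glycolipids and a nuclear protein released by dying cells, was at 16.5 and 12.6 CPM in the Con libraries and at 6.94 and 5.90 CPM in the Fat libraries. Both Fat libraries were below both Con libraries, and the mean fell by 55.9%. The log2 fold change was -1.16 (standard error 0.15, 95% interval -1.51 to -0.81, limma adjusted p = 0.00611). Omitting any single library gave estimates from -1.36 to -0.97, with limma adjusted p-values of at most 0.0090. Of the 13 alternatives, only the fit without limma's mean-variance trend lost the call (adjusted p = 0.0831).

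Clec4n, the receptor for fungal mannans, was at 482.6 and 353.4 CPM in Con and at 318.2 and 278.0 CPM in Fat. The groups did not overlap, but the Con libraries were further apart than Con replicate 2 was from Fat replicate 1. Its log2 fold change of -0.47 (standard error 0.14, 95% interval -0.80 to -0.15) did not pass the test (limma adjusted p = 0.0801). Without Con replicate 2 it was -0.70 and passed (adjusted p = 0.00150), and without Con replicate 1 it was -0.25 (adjusted p = 0.150).

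Clec7a, the receptor for fungal β-glucans and the gene with the most reads of the 10, was at 2864 and 2863 CPM in Con and at 2669 and 2332 CPM in Fat. The Con libraries nearly coincided, both Fat libraries were lower and further apart, and the log2 fold change was -0.20 (95% interval -0.42 to 0.02, limma adjusted p = 0.256). Clec4d, which partners Clec4e at the cell surface and binds the same mycobacterial glycolipid, was at 1762 and 1627 CPM in Con and at 1778 and 1822 CPM in Fat. The Fat libraries were above the Con libraries by a margin smaller than the distance between the Con libraries, and the log2 fold change was 0.09 (95% interval -0.09 to 0.27, limma adjusted p = 0.544). For Clec4d the interval leaves no room for a fall of the size of that of Clec4e.

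Among the M2-linked receptors, Mgl2 (CD301b), a receptor for galactose and N-acetylgalactosamine, was at 1.03 and 1.41 CPM in Con and at 0.375 and 0.512 CPM in Fat. These values correspond to 35 and 53 reads in Con and to 14 and 21 reads in Fat, so Mgl2 was a low-level gene. The groups did not overlap, and the mean fell by 63.7%. The log2 fold change was -1.28 (standard error 0.29, 95% interval -1.96 to -0.60, limma adjusted p = 0.0370). Omitting any single library gave estimates from -1.49 to -1.07, but the limma adjusted p-value was then 0.0628 without Con replicate 1, 0.158 without Con replicate 2, 0.0897 without Fat replicate 1 and 0.0534 without Fat replicate 2. On the recovered reads, edgeR's quasi-likelihood test gave an adjusted p-value of 0.0325 and DESeq2 one of 0.0687. Added constants shrink the change of such a low-level gene, and with a pseudocount of 1 CPM the log2 fold change was -0.62 (limma adjusted p = 0.0395).

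Clec10a (CD301a), the other galactose-type receptor, was at 10.8 and 8.90 CPM in Con and at 12.2 and 14.5 CPM in Fat. Both Fat libraries were above both Con libraries, in the direction opposite to Mgl2. The log2 fold change of 0.44 (standard error 0.13, 95% interval 0.14 to 0.74) did not pass the test (limma adjusted p = 0.0825). It passed without Con replicate 1 (log2 fold change 0.58, adjusted p = 0.0476) and without Fat replicate 1 (0.56, adjusted p = 0.0476).

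Mrc1 (CD206), the receptor for mannose and a common M2 surface marker, was at 453.3 and 408.6 CPM in Con and at 390.3 and 348.8 CPM in Fat. Both Fat libraries were below both Con libraries, and the log2 fold change of -0.22 (standard error 0.08, 95% interval -0.41 to -0.04) did not pass the test (limma adjusted p = 0.134). The estimates of the 3 M2-linked genes thus did not share a direction.

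The DCIR genes were the 3 receptor genes whose groups overlapped. Clec4a2, the inhibitory receptor, was at 177.8 and 169.3 CPM in Con and at 182.0 and 167.8 CPM in Fat (log2 fold change 0.01, 95% interval -0.13 to 0.15, limma adjusted p = 0.945). Clec4a1 was at 78.3 and 62.9 CPM in Con and at 61.7 and 64.9 CPM in Fat (log2 fold change -0.15, adjusted p = 0.415). Clec4a3 was at 85.1 and 71.3 CPM in Con and at 71.3 and 72.8 CPM in Fat (log2 fold change -0.11, adjusted p = 0.473). For Clec4a1 and Clec4a3, Con replicate 1 alone stood above the other 3 libraries. Without it the log2 fold changes were 0.0083 and 0.014, and without Con replicate 2 Clec4a1 passed the test (log2 fold change -0.31, adjusted p = 0.0338). At an unadjusted p-value under 0.05, limma, edgeR and DESeq2 each called 0 of the 3. The related Clec4a4 and Clec4b1 were not called either, with log2 fold changes of -0.49 (limma adjusted p = 0.362) and -0.15 (adjusted p = 0.563).

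**Figure D2:**
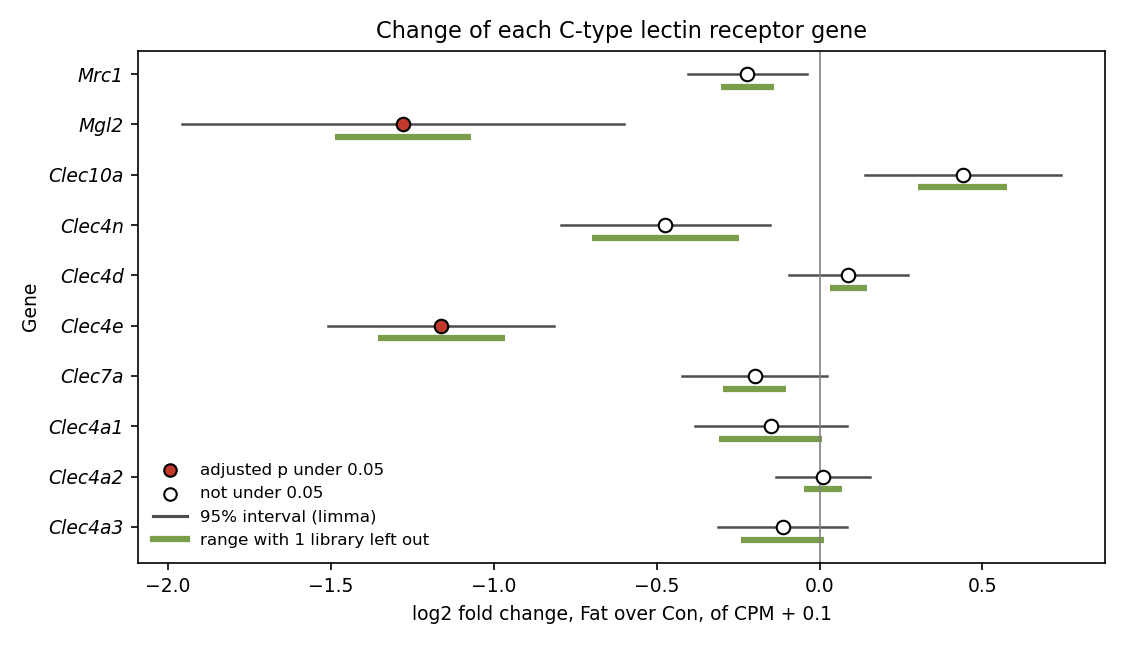
The log2 fold change of each receptor gene (Fat over Con, on log2 of CPM + 0.1), with its 95% limma interval in grey and the range of estimates with 1 library left out in green. Filled points mark Clec4e (-1.16) and Mgl2 (-1.28), the 2 genes with an adjusted p-value under 0.05, and the interval of Clec10a lies on the other side of 0 (0.14 to 0.74).

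Taking the 10 genes as counts, 7 had both Fat libraries on one side of both Con libraries, 5 of them below and 2 above. Across all tested genes this was so for 55.6%, with 26.2% below and 29.4% above. At an unadjusted limma p-value under 0.05, 4 of the 10 were lower and 1 was higher, edgeR's quasi-likelihood test gave the same counts, and DESeq2 gave 5 lower and 1 higher. By the same limma threshold, 24.1% of all tested genes passed, 12.4% lower and 11.8% higher. The median log2 fold change of the 10 was -0.17, against 0.01 over all tested genes. By functional group, 1 of 3 M2-linked, 1 of 4 sensing and 0 of 3 DCIR genes were called lower by limma, against 5.0% of all tested genes. The medians of these groups were -0.22, -0.34 and -0.11. Summed per library, the M2-linked genes reached 465.2 and 419.0 CPM in Con and 402.9 and 363.9 CPM in Fat, of which Mrc1 made up nearly all. The sensing genes reached 5125 and 4856 CPM in Con and 4772 and 4438 CPM in Fat, most of it from Clec7a and Clec4d. Both CPM sums were lower in both Fat libraries, but the TPM sums overlapped between the media. The M2-linked genes were at 203.7 and 179.6 TPM in Con and at 181.2 and 167.4 TPM in Fat. The sensing genes were at 6500 and 5931 TPM in Con and at 6121 and 5788 TPM in Fat. These sums mostly follow Mrc1, Clec7a and Clec4d, so they cannot show a direction for either group. Gene by gene, each group held 1 gene called lower by limma (Mgl2 and Clec4e). Each also held a gene with a higher estimate in Fat, Clec10a and Clec4d, neither of which was called.

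Ratios between genes of the same library do not depend on how libraries are scaled. Those below are ratios of CPM, which is not scaled for gene length, so they compare reads and not transcripts. Clec10a outnumbered Mgl2 by 10.5-fold and 6.30-fold in the Con libraries and by 32.6-fold and 28.4-fold in the Fat libraries (CPM). The ratio was thus higher in both Fat libraries, by 1.91 on the log2 scale. Clec4e amounted to 0.939% and 0.775% of Clec4d in Con and to 0.390% and 0.324% in Fat, a difference of -1.26 on the log2 scale, with no overlap between the groups. Clec4n amounted to 27.4% and 21.7% of Clec4d in Con and to 17.9% and 15.3% in Fat, a difference of -0.56. Each of these 3 ratios had a two-sided p = 0.333 by exact permutation, the smallest value possible with 2 libraries per medium.

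**Figure D3:**
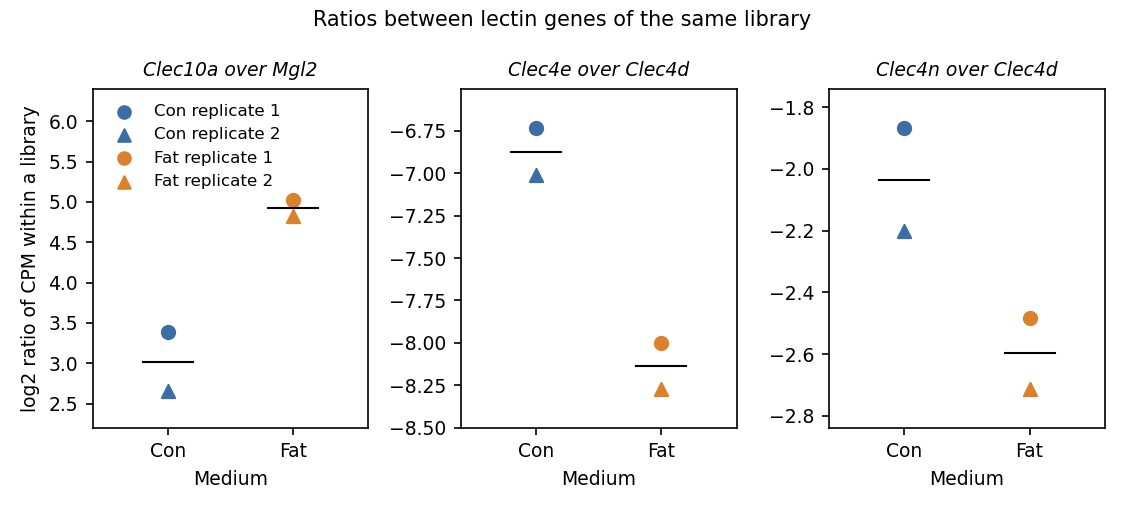
The log2 ratio of CPM between 2 lectin genes within each library, for Con in blue and Fat in orange, with a bar at the mean of the 2 libraries; each panel has its own axis range. Clec10a over Mgl2 is higher in both Fat libraries (mean 4.93 against 3.02), and Clec4e over Clec4d is lower in both (-8.14 against -6.87).

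Other C-type lectin genes were considered in a list of 55, of which 49 were present and 27 passed the filter. In Fat, 5 of the 27 fell and 3 rose, against 5.0% and 3.99% of all tested genes, and the median log2 fold change was -0.15. This list and those below were chosen with earlier results of these data known, so their counts are only descriptive. The largest falls on the log2(CPM + 0.1) scale were those of Cd69, a lymphocyte and myeloid activation marker (log2 fold change -1.29, limma adjusted p = 0.0494), and Pla2r1, a receptor for secreted phospholipase A2 of the mannose receptor family (-1.05, adjusted p = 0.0440). Both were low-level genes, with 0.561 to 2.72 CPM, and their calls were not stable. With a pseudocount of 1 CPM the log2 fold change of Cd69 was -0.72 (limma adjusted p = 0.0622) and that of Pla2r1 -0.69 (adjusted p = 0.0367), both smaller than that of Clec5a (-0.78) in the same fit. Without Con replicate 1 the log2 fold change of Cd69 was -0.86 (adjusted p = 0.238), and it was also not called without Fat replicate 1 (adjusted p = 0.0668) or Fat replicate 2 (0.123). Pla2r1 was not called without Con replicate 1 (adjusted p = 0.0667), Con replicate 2 (0.136) or Fat replicate 2 (0.148). Among better expressed genes, Clec5a, which signals through the adaptor TYROBP, fell from 41.8 and 40.2 to 24.8 and 22.3 CPM (log2 fold change -0.80, adjusted p = 0.00316). Clec12a, an inhibitory receptor for uric acid crystals, fell from 429.5 and 407.0 to 288.7 and 257.5 CPM (-0.62, adjusted p = 0.00466). The 3 that rose were Layn, a hyaluronan receptor (0.50, adjusted p = 0.0292), Thbd, the anticoagulant thrombomodulin (0.39, adjusted p = 0.0207), and Colec12, a scavenger receptor with a collectin domain (0.27, adjusted p = 0.0268). Without Con replicate 1, 4 of the 27 were called, and without Fat replicate 2, 3 were.

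All 30 genes listed for the signalling of these receptors passed the filter. In Fat 4 fell and 3 rose, against 5.0% and 3.99% of all tested genes, with a median log2 fold change of -0.03. Fcer1g, the adaptor of Clec4e and Clec4n, was at 467.2 and 448.8 CPM in Con and at 383.9 and 364.5 CPM in Fat, a log2 fold change of -0.29 (limma adjusted p = 0.0255). Syk, the kinase that receives their signal, was at 402.5 and 382.8 CPM in Con and at 502.2 and 468.6 CPM in Fat, a log2 fold change of 0.31 (adjusted p = 0.0268). The estimates of the adaptor and the kinase thus had opposite signs. They kept these signs with 1 library left out (-0.33 to -0.25 for Fcer1g and 0.26 to 0.36 for Syk). Neither gene was called by limma without the mean-variance trend (adjusted p = 0.131 and 0.136), and Fcer1g was not called with TPM (0.0899). Tyrobp was not called (log2 fold change -0.11, 95% interval -0.27 to 0.05, adjusted p = 0.368), nor was Card9 (-0.08, 95% interval -0.23 to 0.07, adjusted p = 0.518). Malt1, a protease in the complex formed by CARD9, and Vav3, a guanine nucleotide exchange factor downstream of SYK, rose, with log2 fold changes of 0.36 and 0.50 (adjusted p = 0.0211 and 0.00440). Irf1, an interferon-inducible transcription factor, fell by 0.86 on the same scale (adjusted p = 0.00447) and Fgr, a Src family kinase, by 0.41 (adjusted p = 0.0292).

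Of the phosphatases recruited by inhibitory receptors such as those of Clec4a2 and Clec12a, Ptpn6 (SHP-1) fell from 462.5 and 445.8 to 289.1 and 269.2 CPM (log2 fold change -0.70, limma adjusted p = 0.00286). Its relative Ptpn11 (SHP-2) was at 135.5 and 132.3 CPM in Con and at 136.3 and 136.0 CPM in Fat (log2 fold change 0.02, 95% interval -0.10 to 0.14, adjusted p = 0.825). The lipid phosphatase Inpp5d was 0.13 higher on the log2 scale without passing the test (95% interval 0.0039 to 0.25, limma adjusted p = 0.194). Of the 30 signalling genes, 4 were called without Con replicate 1 and 4 without Fat replicate 2.

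Of 20 genes listed as induced through these receptors, 14 passed the filter. Of these, 5 fell and 1 rose, against 5.0% and 3.99% of all tested genes, with a median log2 fold change of -0.33. Those that fell were the chemokine genes Ccl4 (-1.69, limma adjusted p = 0.00286) and Ccl3 (-0.99, adjusted p = 0.00888), the cytokine genes Il1b (-1.43, adjusted p = 0.00760) and Tnf (-0.64, adjusted p = 0.00611), and the inflammasome sensor Nlrp3 (-0.47, adjusted p = 0.0318). Ptgs2, the prostaglandin synthase, rose (log2 fold change 0.64, adjusted p = 0.0216). Each of these genes also responds to other stimuli.

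In a list of 24 other M2 markers, 20 passed the filter. Of these, 7 fell and 2 rose by limma, against 5.0% and 3.99% of all tested genes, with a median of -0.23. Arg1 (log2 fold change 1.14, limma adjusted p = 0.00760), the arginase gene, and Ear2 (1.05, adjusted p = 0.0198), an eosinophil-associated ribonuclease, were those that rose by limma. DESeq2 called 13 of the 20, 4 higher and 9 lower. It added Cd36 (DESeq2 adjusted p = 0.000385) and Mmp12 (0.0253) as higher, and Tgm2 (0.00682) and Chil3 (0.0332) as lower. Neither limma nor edgeR called these genes. Cd36 and Mmp12 had the highest CPM of the list, with both Fat libraries above both Con libraries. By limma, Flt1 (-1.17, adjusted p = 0.0275), Socs1 (-1.02, adjusted p = 0.0170), Ccl22 (-0.93, adjusted p = 0.00348) and Pparg (-0.68, adjusted p = 0.00639) fell, as did 3 further genes. Without Con replicate 1, 5 of the 20 were called.

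**Figure D4:**
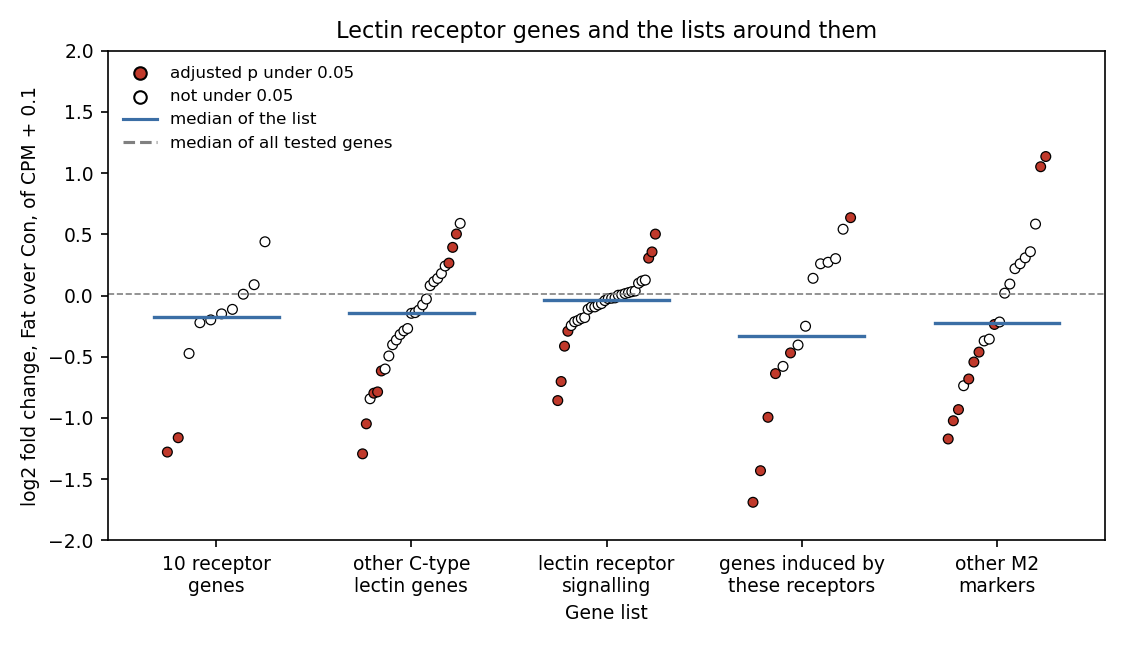
The log2 fold change (Fat over Con, on log2 of CPM + 0.1) of the 10 receptor genes and of every gene that passed the filter in the 4 other lists, ordered by value within each list. Filled points have an adjusted p-value under 0.05, blue bars are the medians of the lists (-0.17, -0.15, -0.03, -0.33 and -0.23 from left to right), and the dashed line is the median of all tested genes (0.01).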

How the data were processed

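Bulk RNA sequencing was analysed for 2 Con and 2 Fat libraries, grouped by the names in their labels. Single reads were counted on genes, and the authors deposited them as CPM, scaled by library total and by a further factor of 0.990 to 1.01. The TPM values deposited by the authors, also scaled for gene length, were used for levels between genes and in 1 alternative. The submitters' processing notes name GRCm39. The aligner, counter and annotation are not given in the sources used here. Reads were recovered from CPM (100% of values whole within 0.01 of a read). A single read was worth 0.0244 to 0.0295 CPM. Intervals cover the spread between libraries and not the origin of the cells.

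Genes with at least 0.5 CPM in 2 libraries were tested with limma 3.58.1 (R 4.3.3) with a mean-variance trend. edgeR 4.0.16 on the recovered reads called 1138 genes and DESeq2 1.42.0 called 1051, against 1122 with limma. Both kinds of test were tested on simulated data. The members and lists were chosen with earlier results of these data known. Named were the 10 members, the adaptors, kinase and phosphatases they use, Clec4a4 and Clec4b1, up to 6 called genes of each list with the largest change, and genes called against the direction of most of their list. Shared sequence was found with BWA 0.7.19 in GENCODE vM21 transcripts. Start-site windows were matched by symbol to RefSeq (GRCm38.p6), and no coordinates of the files were used. Tables were made in Python 3.11.15 (pandas 2.3.3, numpy 2.4.6) with permutation tests in scipy 1.17.1, and plots in matplotlib 3.10.9. The alternatives were a pseudocount of 1, testing of all genes, only genes averaging 5 CPM or more, TPM, median-ratio scaling, a replicate block, no trend, edgeR, DESeq2 and each library left out. The marker Adgre1 was not analysed here. A called gene of the list of other lectins is not reported here.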

Additional observations from a re-analysis of the deposited data

How the results depend on the processing

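With 2 libraries per medium, calls depended on how the spread was estimated. Dropping the trend term of limma reduced the calls from 1122 to 31 genes, among them 0 of the 10 receptors, of the 27 other lectins, of the signalling genes, of the induced genes and of the M2 markers (3, 11, 9, 8 and 14 at an unadjusted limma p-value under 0.05; edgeR called 2, 8, 7, 6 and 9 at an adjusted one). The labels give both media replicates 1 and 2 but do not say that a number marks a shared culture. Deviations from the mean of the medium had a correlation of 0.20 between libraries of the same number. Entering the replicate block into the fit gave 2520 calls, of which 5 were receptors (Clec4n, Mrc1 and Clec10a in addition), 14 other lectins, 12 signalling genes and 14 M2 markers. A mean of at least 5 CPM left out Mgl2, so that 1 receptor was called, and DESeq2 also called 1. With each library left out in turn, 529 to 1131 genes were called (529 without Fat replicate 2 and 666 without Con replicate 1), and 1 to 3 receptors, 3 to 9 other lectins, 4 to 8 signalling genes, 4 to 8 induced genes and 5 to 11 M2 markers. The lone library of a medium is then assumed to vary like the others. Of the 10 receptors, 3 changed sign in such fits: Clec4a1 (-0.31 to 0.0083), Clec4a2 (-0.048 to 0.069) and Clec4a3 (-0.24 to 0.014). The other 7 kept their direction under every alternative in which they were tested. Mgl2, at 14 to 53 reads, is the receptor for which depth limits the precision most.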
